A study of Mus musculus with 15 samples.

Results

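Ifitm1, Ifitm2 and Ifitm3 encode interferon-induced transmembrane proteins and lie side by side on mouse chromosome 7, in the same stretch of the chromosome as Mir210. They were chosen by their gene symbols, with the Ifitm1 difference between injured and sham wild-type libraries already known, and are 3 of the 17892 genes with values in the deposited table. RNA was sequenced from isolated PDGFRbeta+ cells in 15 libraries, to compare miR-210 knockout (KO) with wild-type (WT) mice in the injured and in the sham state. The injury, hypoxia-ischemia (HI) of the newborn brain, was made 24 h earlier. There were 4 libraries of KO HI, 4 of WT HI, 4 of KO sham and 3 of WT sham. PDGFRbeta is a receptor found on pericytes and other mural cells of vessels. The labels describe neither the knockout allele, the strain, the age in days nor the way the cells were isolated, and they do not say whether replicates were separate animals. The p-values therefore measure the spread between these libraries, which may be technical. The line for Mir210 held 0 values in all libraries, so the knockout could not be checked here.

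IFITM proteins are small membrane proteins that sit in the plasma membrane and in endosomes and limit the entry of enveloped viruses by making membranes harder to fuse. Ifitm3 acts mainly in late endosomes and lysosomes, and Ifitm1 mainly at the cell surface. Their genes are induced by type I and type II interferon through STAT and IRF factors that bind DNA motifs near the start of the gene, and several tissues, vessel walls included, express them without infection. miR-210 is a microRNA induced by hypoxia-inducible factor that lowers its target RNAs by pairing of its seed with them.

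The sequences that bear on how the members are controlled are the starts of their genes and the microRNA that the knockout removes. The RefSeq promoters of assembly GRCm38.p6 each hold 250 bases before and 50 bases after the start of the gene, and the mature microRNA is from the same source. The authors' files use build mm39, so these positions do not apply to it. Capitals mark matches to an interferon-stimulated response element core, given here as 2 copies of GAAA separated by any 2 bases, and to a gamma-activated site, TTCNNNGAA, the motif of STAT factors. Both strands were searched. In the microRNA, capitals mark the seed, bases 2 to 8.
Ifitm1, chr7:140967826-140968125, + strand: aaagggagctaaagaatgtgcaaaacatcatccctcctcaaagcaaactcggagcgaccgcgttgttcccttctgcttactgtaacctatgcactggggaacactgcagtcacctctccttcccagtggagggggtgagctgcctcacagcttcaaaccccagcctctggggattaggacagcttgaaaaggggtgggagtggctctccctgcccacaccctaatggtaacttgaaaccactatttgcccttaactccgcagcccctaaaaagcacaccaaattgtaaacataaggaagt
Ifitm2, chr7:140955912-140956211, - strand: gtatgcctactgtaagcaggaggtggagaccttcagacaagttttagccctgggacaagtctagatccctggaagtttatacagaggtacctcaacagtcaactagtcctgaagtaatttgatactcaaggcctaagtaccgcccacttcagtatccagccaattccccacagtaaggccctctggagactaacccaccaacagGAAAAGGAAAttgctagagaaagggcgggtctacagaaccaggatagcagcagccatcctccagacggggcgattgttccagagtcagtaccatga
Ifitm3, chr7:141010695-141010994, - strand: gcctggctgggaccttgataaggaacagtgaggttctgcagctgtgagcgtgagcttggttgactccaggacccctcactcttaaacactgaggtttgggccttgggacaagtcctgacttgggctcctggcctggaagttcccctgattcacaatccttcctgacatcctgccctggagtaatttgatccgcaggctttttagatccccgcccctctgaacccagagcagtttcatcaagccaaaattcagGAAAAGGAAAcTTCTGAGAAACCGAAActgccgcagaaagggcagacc
mmu-miR-210-3p, chr7:141221407-141221428, - strand: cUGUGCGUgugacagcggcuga

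Positions are counted from 1 at the first base of the gene, with the base before it as -1. The response element core had 1 match in the Ifitm2 promoter, at -46 to -37, and 2 matches in the Ifitm3 promoter, at 3 to 12 and at 20 to 29. The gamma-activated site matched once in the Ifitm3 promoter, at 14 to 22, where it overlapped the second response element match, so the capitals there run together. No match to either motif was found in the 300 bases shown for Ifitm1. Of 32851 RefSeq promoters of this length, 3.44% held the response element core and 8.3% held the gamma-activated site. The seed of miR-210-3p had 0 matches in the 5 annotated transcripts of the members, of 560 to 882 bases. The members are related in sequence, so short reads can be split between them: the longest identical stretch was 69 bases between the transcripts of Ifitm2 and Ifitm3, 64 bases between those of Ifitm1 and Ifitm3 and 40 bases between those of Ifitm1 and Ifitm2. The share of 50-base words of one transcript found in the other was at most 3.3% in any pair.

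All members were well covered. Library totals were 15436372 to 18118687 counts, and the members had between 118 counts, for Ifitm1 in KO sham 1, and 7561 counts, for Ifitm3 in WT HI 1. Values below are counts per 1000000 counts of the scaled library total (CPM), unless said otherwise. The libraries differed in make-up as well as in the members. Neuronal markers averaged more than 2.5 on the log2 CPM scale in KO HI 2, KO HI 3, KO sham 1 and KO sham 3, at 3.19, 5.18, 5.77 and 3.4, and the members' results are also given without those libraries. WT sham 2 lay just under this cut, at 2.41, so only KO libraries were left out. Choroid plexus and ependymal markers differed as well, with sums from 149 CPM in KO sham 4 to 53074 CPM in KO HI 2. In whole-sample RNA of this kind, fewer cells of a type and less RNA per cell cannot be told apart. Library numbers are those of the labels.

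In KO mice, Ifitm1 rose after HI and the values of Ifitm2 and Ifitm3 overlapped between injured and sham libraries. The values compared came from no library of the WT difference by which Ifitm1 was already known. The edgeR test still estimated the spread from all 15 libraries, the WT libraries included, so it is not independent of them. Ifitm1 had 63.5, 31.4, 42.4 and 74.5 CPM in KO HI 1, 2, 3 and 4, against 8.64, 19.7, 26.6 and 24.7 CPM in KO sham 1, 3, 4 and 6. All KO HI libraries lay above all KO sham libraries, with KO sham 1 the lowest. The means were 52.9 ± 19.6 CPM in KO HI and 19.9 ± 8.05 CPM in KO sham (SD, n = 4 each), a 2.66-fold difference. The log2 fold change was 1.41 ± 0.33 (SE; 95% interval 0.70 to 2.11), with an adjusted p of 0.0236 by the quasi-likelihood test of edgeR over 14853 genes.

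Ifitm2 had 122, 110, 96.6 and 129 CPM in KO HI 1, 2, 3 and 4, against 64.4, 99.4, 142 and 104 CPM in KO sham 1, 3, 4 and 6. The groups overlapped, and KO sham held both the lowest and the highest value. Its log2 fold change was 0.16 ± 0.19 (SE; 95% interval -0.25 to 0.57; edgeR adjusted p = 0.708). Ifitm3, the most abundant member, had 222, 199, 162 and 218 CPM in KO HI 1, 2, 3 and 4, against 106, 177, 266 and 183 CPM in KO sham 1, 3, 4 and 6. Here too both extremes were KO sham libraries, KO sham 1 and KO sham 4. Its log2 fold change was 0.13 ± 0.22 (SE; 95% interval -0.35 to 0.60; edgeR adjusted p = 0.801). Thus 1 of 3 members rose in KO mice, where 4.88% of all genes tested were called higher, and in 1 of 3 the groups did not overlap with HI above sham, against 6.06% of all genes tested.

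The Ifitm1 call in KO mice was lost when KO HI 1 (adjusted p = 0.0783), KO HI 4 (0.0552) or KO sham 3 (0.0619) was left out of the edgeR fit, with log2 fold changes of at least 1.18. Without the 4 libraries of high neuronal marker level it was 1.44, with an edgeR adjusted p of 0.0028 and 2 libraries per KO group. Over all genes 2903 were called in that fit, against 1041 with all libraries. In a fit of the KO libraries alone the log2 fold change was 1.36, with an edgeR adjusted p of 0.193. For Ifitm2 and Ifitm3 the sign turned without KO sham 1, at -0.02 and -0.07.

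In WT mice the injured libraries lay above the sham libraries for each member, which is a description because these values were known when the members were chosen. Ifitm1 had 176, 108, 166 and 159 CPM in WT HI 1, 2, 4 and 5, against 27, 28.1 and 32.5 CPM in WT sham 1, 2 and 3. The lowest WT HI library, WT HI 2, was still well above every WT sham library. Ifitm2 had 223, 167, 215 and 218 CPM in WT HI 1, 2, 4 and 5, against 120, 109 and 131 CPM in WT sham 1, 2 and 3. Ifitm3 had 432, 290, 397 and 408 CPM in WT HI 1, 2, 4 and 5, against 210, 196 and 226 CPM in WT sham 1, 2 and 3. WT HI 2 was the lowest injured WT library for all 3 members, and no group pair overlapped.

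The WT fold was 5.22 for Ifitm1, 1.72 for Ifitm2 and 1.81 for Ifitm3. On the log2 scale these were 2.38 ± 0.37, 0.78 ± 0.21 and 0.86 ± 0.24 (SE). The means were 152 ± 30.4 CPM in WT HI and 29.2 ± 2.89 CPM in WT sham for Ifitm1, 206 ± 26.1 and 120 ± 11.3 CPM for Ifitm2, and 382 ± 63.1 and 211 ± 14.8 CPM for Ifitm3 (SD, n = 4 in WT HI and 3 in WT sham). Among all genes tested, 1.38% were called higher after HI in WT by edgeR, and in 15.9% all WT HI libraries lay above all WT sham libraries. The WT values entered the choice of the members, so their count is not read against these shares.

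**Figure D1:**
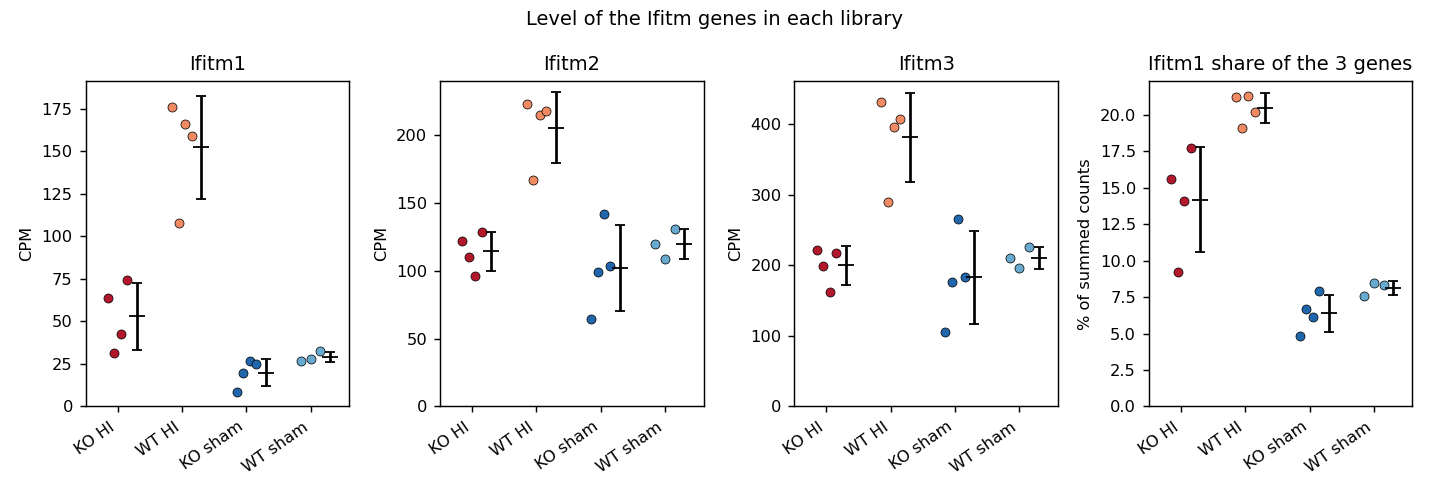
Level of Ifitm1, Ifitm2 and Ifitm3 in CPM, and the share of Ifitm1 in the summed counts of the 3 genes in percent, with 1 point per library in KO HI, WT HI, KO sham and WT sham and the mean with its SD beside the points. The WT HI points stand above those of the other groups in each panel, and in KO HI the means are 52.9, 114 and 200 CPM for Ifitm1, Ifitm2 and Ifitm3.

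After HI, all 3 members were lower in KO than in WT. The WT HI libraries of this comparison are also those of the WT difference described above, so the comparisons are not independent. Ifitm1 was 2.88-fold lower in KO, at 52.9 ± 19.6 CPM in KO HI and 152 ± 30.4 CPM in WT HI (SD, n = 4 each). Its log2 fold change was -1.52 ± 0.33 (SE; 95% interval -2.23 to -0.82; edgeR adjusted p = 0.0127). Ifitm2 was 1.8-fold lower, at 114 ± 14.5 CPM in KO HI and 206 ± 26.1 CPM in WT HI, with a log2 fold change of -0.85 ± 0.19 (SE; edgeR adjusted p = 0.0165). Ifitm3 was 1.91-fold lower, at 200 ± 27.1 CPM in KO HI and 382 ± 63.1 CPM in WT HI, with a log2 fold change of -0.93 ± 0.22 (SE; edgeR adjusted p = 0.0189). For each member the highest KO HI library lay below the lowest WT HI library, WT HI 2. Among all genes tested 6.46% were called lower in KO after HI, and in 11.5% all KO HI libraries lay below all WT HI libraries.

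Leaving out any 1 of the 15 libraries kept the Ifitm1 call between KO and WT after HI, with log2 fold changes of -1.75 to -1.34. The edgeR call of Ifitm2 was lost without WT HI 1 (adjusted p = 0.058), WT HI 4 (0.0524) or WT HI 5 (0.0537), with log2 fold changes of -0.80, -0.82 and -0.83. That of Ifitm3 was lost without KO HI 3 (0.0534), WT HI 1 (0.0655), WT HI 4 (0.0572) or WT HI 5 (0.0592), with log2 fold changes of -0.84, -0.87, -0.91 and -0.91. Without the 4 libraries of high neuronal marker level the values were -1.14, -0.70 and -0.79 for Ifitm1, Ifitm2 and Ifitm3, all called. This setting was chosen after seeing the data and kept 2 libraries per KO group. Over all genes it called 3990, against 1844 with all libraries.

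Without injury no member passed the test between genotypes. Ifitm1 averaged 19.9 ± 8.05 CPM in KO sham and 29.2 ± 2.89 CPM in WT sham (SD, n = 4 and 3), with a log2 fold change of -0.55 ± 0.35 (SE; edgeR adjusted p = 0.488). The groups did not overlap but came close, at 26.6 CPM in KO sham 4 and 27 CPM in WT sham 1, and 5.49% of all genes tested had every KO sham library below every WT sham library. Ifitm2 averaged 103 ± 31.8 CPM in KO sham and 120 ± 11.3 CPM in WT sham, with a log2 fold change of -0.22 ± 0.21 (SE; edgeR adjusted p = 0.59). Ifitm3 averaged 183 ± 65.2 CPM in KO sham and 211 ± 14.8 CPM in WT sham, with a log2 fold change of -0.20 ± 0.24 (SE; edgeR adjusted p = 0.669). Both pairs of groups overlapped. By edgeR 0 of 3 members were called and 0 had an unadjusted p under 0.05, and DESeq2 and limma-voom called 0 as well. Over all genes 0.0135% were called in either direction, and 1272 had an unadjusted p under 0.05.

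The HI response of KO minus that of WT was -0.97 ± 0.47 for Ifitm1, -0.62 ± 0.28 for Ifitm2 and -0.73 ± 0.32 for Ifitm3 on the log2 scale (SE). The unadjusted edgeR p-values were 0.0608, 0.0465 and 0.0426, and each adjusted p was 0.932, so a difference between the responses was not shown. The 95% interval of Ifitm1 included 0, and those of Ifitm2 and Ifitm3 were -1.23 to -0.01 and -1.43 to -0.03. By edgeR 0 of 3 members and 0% of all genes were called for this difference, with 768 at an unadjusted p under 0.05. DESeq2 called 22 genes and limma-voom 0, with no member called by either. The WT portion of this difference is the one known when the members were chosen.

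**Figure D2:**
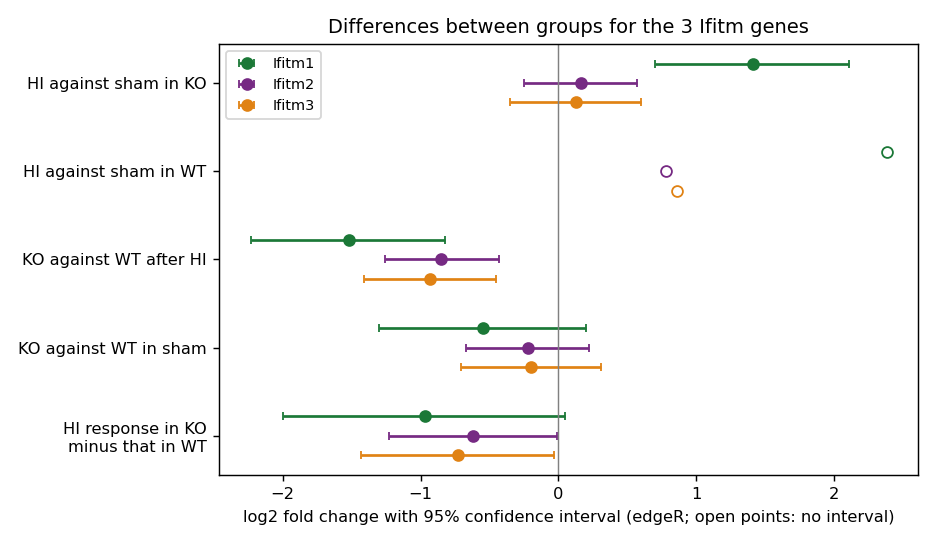
Log2 fold changes of Ifitm1, Ifitm2 and Ifitm3 in 5 comparisons, as points with 95% confidence intervals from edgeR, except HI against sham in WT, which is drawn as open points without intervals. Ifitm1 lies to the right of 0 in KO after HI at 1.41, and all 3 genes lie to the left of 0 for KO against WT after HI, at -1.52, -0.85 and -0.93.

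The make-up of the family was compared next, since a share within it does not depend on library size. Ifitm1 made up 15.6%, 9.25%, 14.1% and 17.7% of the summed counts of the 3 members in KO HI 1, 2, 3 and 4, against 4.82%, 6.66%, 6.12% and 7.91% in KO sham 1, 3, 4 and 6. All KO HI shares lay above all KO sham shares. The difference of 7.76 percentage points had a two-sided exact permutation p of 0.0286, the smallest that 4 against 4 libraries can give, and 0.0429 adjusted over the 3 comparisons tested. In WT HI 1, 2, 4 and 5 the share was 21.2%, 19.1%, 21.3% and 20.2%, and in WT sham 1, 2 and 3 it was 7.57%, 8.44% and 8.33%, a difference of 12.4 points that is given without a test.

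After HI the Ifitm1 share was 14.1 ± 3.58% in KO and 20.5 ± 1.02% in WT (SD, n = 4 each). The WT HI libraries here are also those of the WT difference known when the members were chosen, so this test is not independent of it. The share was lower in KO, with a difference of -6.33 points (exact permutation p = 0.0286, adjusted 0.0429), with the highest KO HI library below the lowest WT HI library. In sham libraries it was 6.38 ± 1.28% in KO and 8.12 ± 0.475% in WT (SD, n = 4 and 3), which did not pass (exact permutation p = 0.0857). The other two members kept a near-fixed ratio: Ifitm2 made up 34% to 37.8% of the summed counts of Ifitm2 and Ifitm3 in all 15 libraries. As a description over the 15 libraries, the log2 CPM of Ifitm2 and Ifitm3 correlated at r = 0.996, those of Ifitm1 and Ifitm2 at 0.914 and those of Ifitm1 and Ifitm3 at 0.896. The points share their libraries and their cell make-up.

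Per kilobase of transcript, the order of the mean levels in each group was Ifitm3, Ifitm2, Ifitm1. In KO HI, Ifitm3 averaged 295 ± 40 and Ifitm2 175 ± 22.1 CPM per kilobase, and in WT HI 563 ± 93.1 and 314 ± 39.8 (SD, n = 4). Ifitm1 averaged 60 to 94.5 CPM per kilobase in KO HI and 173 to 272 in WT HI, depending on which of its transcripts, of 882 or 560 bases, sets the length. In sham libraries Ifitm3 averaged 270 ± 96.2 in KO and 311 ± 21.8 in WT, Ifitm2 averaged 156 ± 48.6 in KO and 183 ± 17.3 in WT, and Ifitm1 at most 35.5 in KO and 52.1 in WT. The spreads of Ifitm3 and Ifitm2 over libraries overlapped in KO sham, but within each KO sham library Ifitm3 was the higher. Those of Ifitm2 and Ifitm1 overlapped in WT HI when the shorter Ifitm1 transcript was used, but within each WT HI library Ifitm2 was still the higher.

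Vessel and immune cell markers also differed between the genotypes after HI, in the libraries on which the members' difference rests. All 17 pericyte markers, a list that includes Pdgfrb, had values, and their sum was 1892 to 6299 CPM in KO HI and 6531 to 9142 CPM in WT HI. In sham libraries it was 3209 to 9430 CPM in KO and 8936 to 12215 CPM in WT. The 12 endothelial markers summed to 2976 to 5946 CPM in KO HI, 9185 to 12050 CPM in WT HI, 3163 to 9489 CPM in KO sham and 8744 to 10501 CPM in WT sham. The 12 microglial markers went the other way between genotypes, with sums of 5940 to 12874 CPM in KO HI, 1724 to 4605 CPM in WT HI, 3334 to 5975 CPM in KO sham and 2510 to 3558 CPM in WT sham. The sums of 7 fibroblast markers overlapped between genotypes after HI, at 1199 to 5006 CPM in KO HI and 3683 to 6817 CPM in WT HI. Those of 7 smooth muscle markers overlapped too, at 712 to 1312 CPM in KO HI and 1232 to 2599 CPM in WT HI. None of these markers was at 0 in all libraries of a group. The 10 markers of neutrophils and monocytes summed to 87.3 to 174 CPM in KO HI, 36.3 to 110 CPM in WT HI, 39.9 to 84.5 CPM in KO sham and 29.5 to 47 CPM in WT sham, with Ly6g at 0 in all injured libraries.

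With pericyte, or with endothelial and microglial, marker levels in the model, the members' calls between genotypes after HI were lost. With the mean of the pericyte markers as a covariate, a setting chosen after seeing the data, the log2 fold changes of KO over WT after HI were -0.61 for Ifitm1, -0.27 for Ifitm2 and -0.28 for Ifitm3 (edgeR adjusted p = 0.119, 0.179 and 0.277). With the endothelial and microglial means they were -0.42, 0.06 and 0.15 (edgeR adjusted p = 0.997 for each). With the neuronal and choroid plexus means they were -1.11, -0.56 and -0.61, and all were still called. Over all genes 1844 were called without covariates and 1909 with the pericyte covariate. With the endothelial and microglial covariates 1 gene was called, and 2657 were with the neuronal and choroid plexus covariates. Marker levels and genotype move together in these libraries, so such a fit cannot tell them apart.

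For HI against sham in KO the fold changes were larger with the pericyte covariate and with the endothelial and microglial covariates. Ifitm1 had a log2 fold change of 1.86 with the pericyte covariate and 1.95 with the endothelial and microglial covariates. Ifitm2 passed the edgeR test at 0.44 and 0.56 (adjusted p = 0.00898 and 0.0246), and Ifitm3 at 0.46 and 0.61 (adjusted p = 0.0201 and 0.0269). Calls over all genes also rose, from 1041 without covariates to 4580 with the pericyte covariate, which was chosen after seeing the data. With the endothelial and microglial covariates 1282 genes were called. Whether the members' RNA came from pericytes or from other cells in the isolated fraction was not tested.

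Set against the mean of the 17 pericyte markers in the same library, Ifitm1 was at -0.70 ± 0.47 in KO HI, -0.36 ± 0.11 in WT HI, -2.66 ± 0.14 in KO sham and -2.93 ± 0.32 in WT sham, as log2 differences (SD over libraries). Both injured groups lay above both sham groups, without overlap. This is a description, since the WT values were known when the members were chosen. The share of all genes that separate in this way on this scale was not computed. Ifitm2 was at 0.48 ± 0.52 in KO HI, 0.09 ± 0.06 in WT HI, -0.23 ± 0.31 in KO sham and -0.89 ± 0.22 in WT sham on the same scale. Ifitm3 was at 1.29 ± 0.53 in KO HI, 0.97 ± 0.07 in WT HI, 0.58 ± 0.25 in KO sham and -0.07 ± 0.23 in WT sham. On this scale the means of Ifitm2 and Ifitm3 were higher in KO HI than in WT HI, the reverse of their order in CPM, and the ranges of the groups overlapped.

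**Figure D3:**
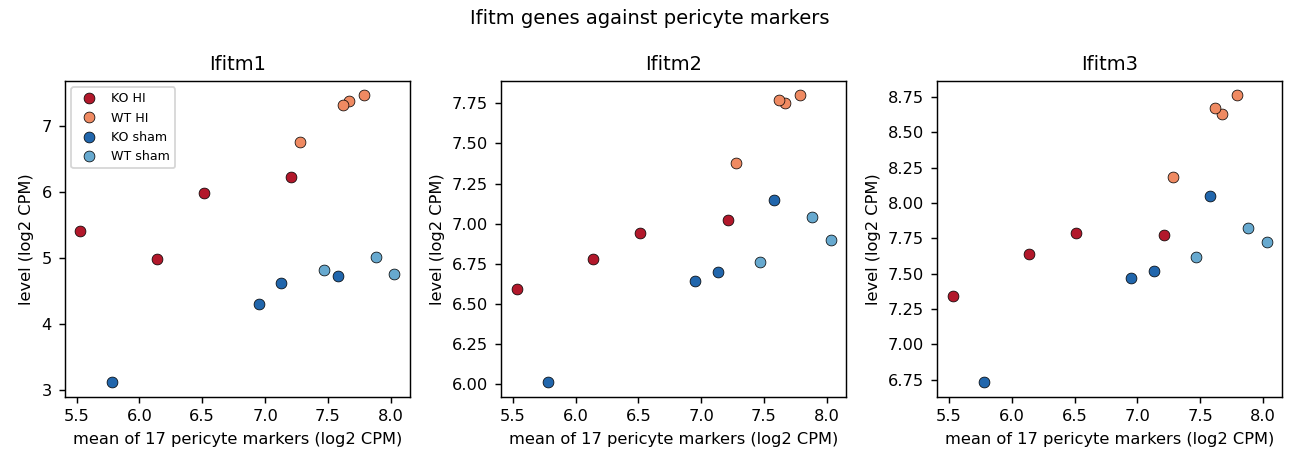
Level of each member on the log2 CPM scale against the mean log2 CPM of 17 pericyte markers, with 1 point per library, coloured by KO HI, WT HI, KO sham and WT sham. The pericyte mean is 5.53 to 7.21 in KO HI and 7.28 to 7.79 in WT HI, so these groups do not overlap along the horizontal axis.

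**Figure D4:**
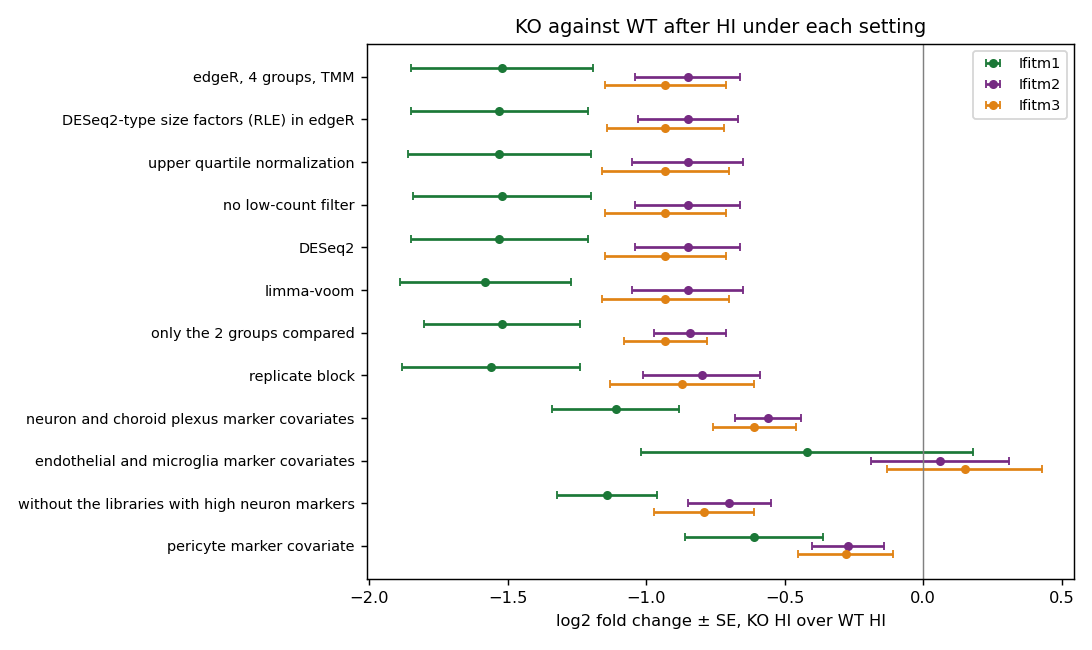
Log2 fold change of KO HI over WT HI for each member, as a point with its SE, under 12 settings of the model. The values stay near -1.52, -0.85 and -0.93 under other scalings and tools, and lie nearest 0 with endothelial and microglial marker covariates, at -0.42, 0.06 and 0.15.

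Other Ifitm genes were at low levels. Ifitm5, known for its role in bone, had 0 to 10 counts per library and Ifitm7 had 0 to 7, and neither was tested. Ifitm6 averaged 1.1 ± 0.831 CPM in KO HI, 0.696 ± 0.271 CPM in WT HI, 0.239 ± 0.144 CPM in KO sham and 0.225 ± 0.15 CPM in WT sham (SD). Its log2 fold change after HI was 2.16 ± 0.66 in KO (edgeR adjusted p = 0.0681) and 1.60 ± 0.73 in WT (adjusted p = 0.382), in both without overlap of the groups. The Ifitm6 counts were few, at 8 to 37 in KO HI, 8 to 19 in WT HI, 1 to 7 in KO sham and 1 to 6 in WT sham. Over all genes tested, HI lay above sham without overlap in 6.06% in KO and 15.9% in WT. Ifitm10, which lies away from the cluster, averaged 3.7 ± 0.687 CPM in KO HI, 3.14 ± 1.01 CPM in WT HI, 3.92 ± 0.703 CPM in KO sham and 2.34 ± 0.543 CPM in WT sham. By edgeR 0 of the 2 tested genes were called in any comparison. At an unadjusted p under 0.05 there was 1 for HI in KO, 1 for HI in WT and 1 in sham libraries, and DESeq2 called 1, for HI in KO, and limma-voom 0.

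Interferon signalling genes were read beside the members, beginning with ligands and receptors. Of 10 such genes, 8 had values and 6 were tested. In KO after HI 1 rose, Ifngr2, a chain of the interferon gamma receptor, at a log2 fold change of 0.58 ± 0.14 (SE; edgeR adjusted p = 0.0289), with means of 87.6 ± 17.6 CPM in KO HI and 58.7 ± 5.44 CPM in KO sham. The next genes by p were Il10rb at 0.61 ± 0.22 (adjusted p = 0.119), Ifngr1 at 0.28 ± 0.21 (0.481) and Ifnlr1 at 0.58 ± 0.59 (0.647), none of them called. The list's median was 0.43, against -0.06 over all genes tested, of which 4.88% were called higher and 2.13% lower. In WT 0 were called by edgeR, 0 by DESeq2 and 0 by limma-voom, with 1 at an unadjusted p under 0.05, and the median was -0.03, against -0.01 over all genes. KO against WT after HI called Ifngr1 at 0.71 ± 0.21 and Ifngr2 at 0.48 ± 0.14 (edgeR adjusted p = 0.0408 and 0.0405), both higher in KO, where 5.96% of all genes were called higher.

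Among 12 signal transducers and regulators, 2 rose in KO after HI and 0 fell, beside 4.88% and 2.13% of all genes. Irf7, a factor that drives type I interferon and its target genes, was at 0.77 ± 0.19 (SE; edgeR adjusted p = 0.0299), and Irf8, a factor of microglia and macrophages, was at 1.32 ± 0.36 (adjusted p = 0.0464). Usp18, at 0.46 ± 0.19 (0.163), and Jak1, at 0.29 ± 0.12 (0.184), did not pass. Microglial markers averaged 8.63 ± 0.49 in KO HI and 7.97 ± 0.37 in KO sham on the log2 CPM scale (SD), and their part in the immune genes that rose in KO was not tested. Irf8 averaged 148 CPM in KO HI, 52.1 CPM in WT HI, 59.2 CPM in KO sham and 33.9 CPM in WT sham. In WT 0 were called by edgeR, 1 by DESeq2 and 0 by limma-voom, with 1 at an unadjusted p under 0.05. Irf7 was at 0.39 ± 0.21 and Irf8 at 0.62 ± 0.39 there. KO against WT after HI called Irf8 higher, at 1.51 ± 0.37, and the kinase Jak2 lower, at -0.45 ± 0.12, beside 5.96% and 6.46% of all genes. The medians were 0.23 for HI in KO, 0.16 for HI in WT and -0.11 for KO against WT after HI, the last against 0.06 over all genes.

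Among 28 interferon-stimulated effectors, 4 rose and 1 fell in KO after HI, beside 4.88% and 2.13% of all genes, with a median of 0.42. Those that rose were the chemokine Cxcl10 at 2.46 ± 0.44 (SE; edgeR adjusted p = 0.00814), the antiviral enzyme Rsad2 at 1.15 ± 0.24 (0.0153), the nucleic acid sensor Zbp1 at 1.45 ± 0.34 (0.0261) and the immunoproteasome subunit Psmb8 at 0.92 ± 0.23 (0.0295). Gbp3, a guanylate-binding protein, fell by 0.52 on the log2 scale (adjusted p = 0.0481). In WT 2 rose, Zbp1 at 2.20 ± 0.40 and Ifi27l2a at 1.69 ± 0.33, beside 1.38% of all genes, and the median was 0.22. Between genotypes after HI, 4 were higher in KO and 1 was lower, beside 5.96% and 6.46% of all genes, with a median of 0.14. Higher in KO were Mx1 at 1.58 ± 0.32, Rsad2 at 1.05 ± 0.24, B2m at 0.93 ± 0.19 and Psmb8 at 0.75 ± 0.22, and lower was Ifi44 at -0.89 ± 0.25. B2m, the light chain of MHC class I, averaged 451 CPM in KO HI, 236 CPM in WT HI, 298 CPM in KO sham and 243 CPM in WT sham.

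The gp130 cytokines, which signal through the STAT3 factor, were read as another STAT input. Of 13 genes 2 rose in KO after HI, with a median of 0.37: the cytokines Il11, at 4.15 ± 0.80, and Osm, at 2.01 ± 0.41 (SE; edgeR adjusted p = 0.0113 and 0.0132). The feedback inhibitor Socs3, at 1.35 ± 0.41 (0.0652), and Il6, at 1.54 ± 0.53 (0.102), did not pass there. In WT 4 rose, with a median of 0.76: Il11 at 6.17 ± 0.96, Il6 at 3.31 ± 0.61, Lif at 1.95 ± 0.45 and Stat3 at 0.76 ± 0.15. Il11 averaged 4.59 CPM in KO HI, 20.6 CPM in WT HI, 0.249 CPM in KO sham and 0.279 CPM in WT sham. KO against WT after HI had 4 lower in KO and 1 higher, with a median of -0.43. The cytokines Il6 at -2.66 ± 0.52 and Lif at -1.69 ± 0.40, the oncostatin M receptor Osmr at -1.32 ± 0.30 and Stat3 at -0.46 ± 0.14 were lower (edgeR adjusted p = 0.00957, 0.0195, 0.0158 and 0.0456). The receptor Il6ra was higher, at 1.12 ± 0.26 (adjusted p = 0.0182). Over all genes tested, 4.88% were called higher for HI in KO and 1.38% for HI in WT, with medians of -0.06 and -0.01. Between genotypes after HI, 6.46% of all genes were called lower in KO and 5.96% higher, with a median of 0.06.

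Partners and modifiers of IFITM proteins were called in small numbers. Of 7 genes, Cd9, a tetraspanin, rose in KO after HI at 1.11 ± 0.22 (SE; edgeR adjusted p = 0.0119), with means of 390 CPM in KO HI and 181 CPM in KO sham. Setd7 at -0.43 ± 0.14 (0.0957), Zmpste24 at 0.34 ± 0.12 (0.102) and Nedd4 at -0.39 ± 0.16 (0.168) did not pass there. Cd9 was also higher in KO than in WT after HI, at 0.93 ± 0.22 (adjusted p = 0.0179). Nedd4, a ubiquitin ligase that acts on IFITM3 in human cells, was lower in KO than in WT after HI at -0.63 ± 0.16 (adjusted p = 0.0225). Over all genes tested, 4.88% were called higher for HI in KO. Between genotypes after HI, 5.96% of all genes were called higher in KO and 6.46% lower. In WT after HI 0 of the 7 were called by edgeR, 1 by DESeq2 and 0 by limma-voom, with 1 at an unadjusted p under 0.05.

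The number of calls in these lists moved with single libraries. Of the interferon-stimulated effectors, 11 were called for HI in KO without KO HI 2, 3 without KO HI 3 or KO sham 6 and 2 without KO HI 1, KO HI 4 or KO sham 3. For KO against WT after HI, 8 were called without KO sham 1, 3 without KO HI 3 or WT sham 1 and 2 without WT HI 1, WT HI 4 or WT HI 5. For HI in WT 1 effector was called without WT HI 1, WT HI 4 or WT HI 5 and 0 without any 1 of the WT sham libraries. The call of Ifngr2 for HI in KO was lost without KO HI 1, KO HI 3, KO HI 4, KO sham 3 or KO sham 4. Between genotypes after HI, 0 ligands and receptors were called without KO HI 1, KO HI 4, WT HI 1, WT HI 4, WT HI 5 or any 1 of the WT sham libraries, and 1 without KO HI 3 or KO sham 3. Of the partners and modifiers, 0 were called between genotypes after HI without KO HI 1, WT HI 1, WT HI 4 or WT HI 5 and 1 without KO HI 3. Of the transducers 0 were called for HI in KO without KO HI 1, KO HI 3, KO HI 4, KO sham 3 or KO sham 6, and 0 between genotypes after HI without KO HI 1, WT HI 1, WT HI 4 or WT HI 5. The gp130 list had 1 call between genotypes after HI without WT HI 1, 2 without KO HI 1 and 3 without KO HI 3, WT HI 4 or WT HI 5. For HI in WT it had 0 without WT sham 1 or WT sham 2, 1 without WT sham 3 and 2 without WT HI 1, WT HI 4 or WT HI 5. DESeq2 called more effectors for HI in KO, 13, and limma-voom called 4.

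Between KO and WT in sham libraries, and for the difference of responses, edgeR, DESeq2 and limma-voom called 0 genes of each of these lists. In sham libraries 4 effectors, 2 transducers and 1 partner or modifier had an unadjusted p under 0.05, and for the difference of responses 1 effector and 1 gene of the gp130 list did. Microglial markers were higher in KO HI than in WT HI, with the sums given above, and their part in the higher immune genes of KO was not tested.

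The chromosomal neighbours were compared because the members and the deleted microRNA share a region. In the RefSeq gene order, Ifitm5, Ifitm2, Ifitm1, Ifitm3 and Ifitm6 stand next to each other, with 11 protein-coding genes between Ifitm3 and Mir210. Irf7 stands on the other side, at place 3 from Mir210. Of 36 protein-coding neighbours other than the Ifitm genes, 30 were tested. In KO after HI 2 rose, Irf7 as given above and Rnh1, the ribonuclease inhibitor, at 0.52 ± 0.12 (SE; edgeR adjusted p = 0.0198), with means of 113 CPM in KO HI and 78.8 CPM in KO sham. This is 2 of 30, near the 4.88% of all genes called higher in this comparison. Tspan4 at 0.64 ± 0.23 (0.123) and Psmd13 at 0.16 ± 0.07 (0.177) did not pass. The median was -0.03, against -0.06 over all genes. In WT 0 were called by edgeR, 2 by DESeq2 and 0 by limma-voom, with 2 at an unadjusted p under 0.05 and a median of 0.13 against -0.01 over all genes.

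KO against WT after HI called 1 neighbour, the tetraspanin Cd151, lower in KO at -0.86 ± 0.24 (edgeR adjusted p = 0.0364), with means of 191 CPM in KO HI and 348 CPM in WT HI. The median was 0.08, against 0.06 over all genes, of which 6.46% were called lower in KO. The tested genes nearest Mir210 were Rassf7 on one side, at 0.06 ± 0.36, and Phrf1 on the other, at -0.06 ± 0.11. The nearest tested genes on either side of the members were Pgghg, which lies beyond the untested Ifitm5, at -0.36 ± 0.14 (edgeR adjusted p = 0.102), and Ifitm6, at 0.65 ± 0.61 (adjusted p = 0.471). Neither passed the test. The call of Cd151 was lost without KO HI 1, KO HI 3, WT HI 1, WT HI 4, WT HI 5 or any 1 of the WT sham libraries, and 6 neighbours were called without KO sham 1 and 6 by DESeq2. For HI in KO 0 neighbours were called without KO HI 1 or KO HI 4, 1 without KO HI 3, KO sham 3 or KO sham 6, and 4 without KO HI 2.

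**Figure D5:**
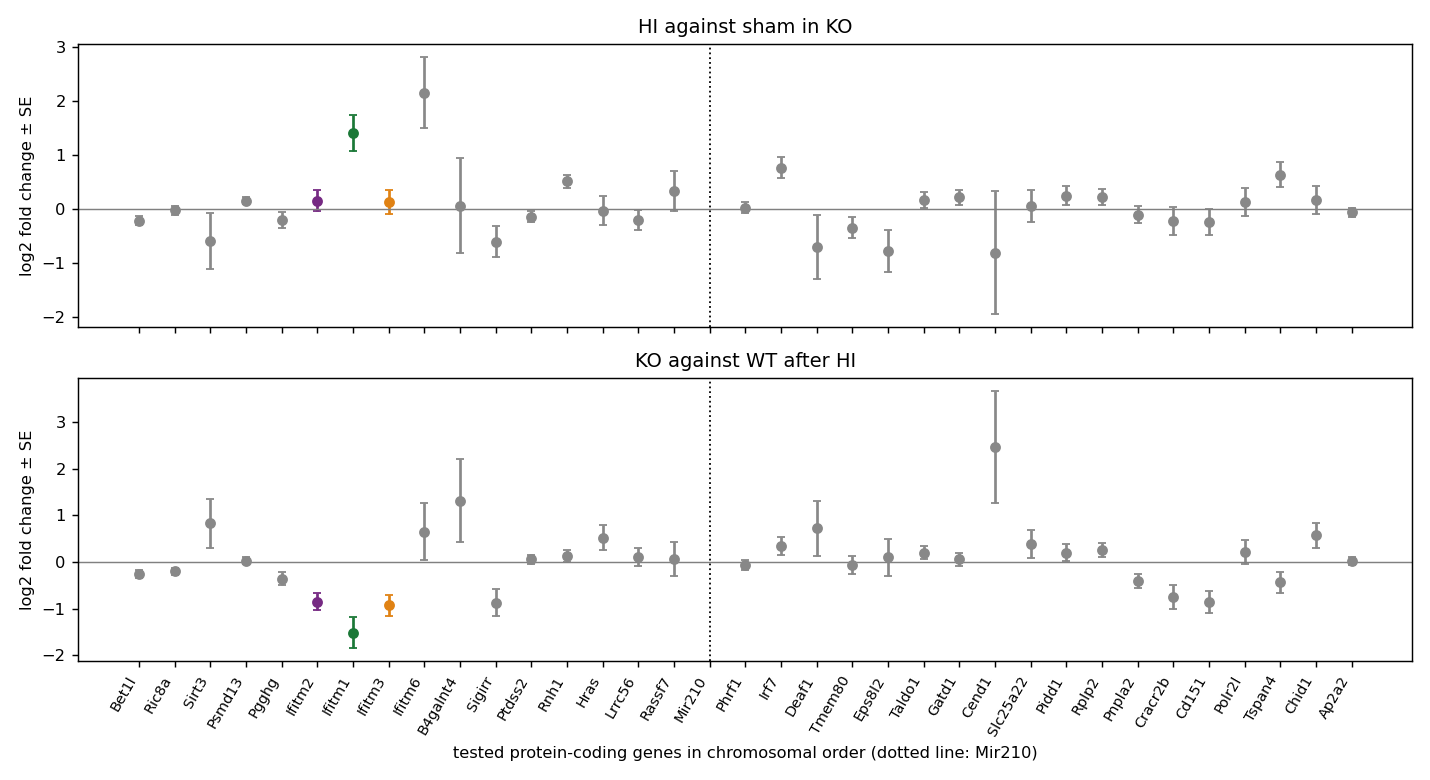
Log2 fold change with SE for HI against sham in KO (upper panel) and KO against WT after HI (lower panel) of the tested protein-coding genes around Mir210, in chromosomal order with equal spacing; the dotted line marks Mir210. In the lower panel the coloured points of Ifitm2, Ifitm1 and Ifitm3 lie at -0.85, -1.52 and -0.93, between Pgghg at -0.36 and Ifitm6 at 0.65.

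The genes whose levels were most like those of the members were found by Pearson correlation of log2 CPM over the 15 libraries, among 10657 genes averaging at least 10 CPM. This is a description in which all points share library, depth and cell make-up. Among those nearest to Ifitm1 were Sbno2 and Xbp1 (r = 0.973 each), Ptgs2 (r = 0.969) and Col5a3 (r = 0.967). Ptgs2, which encodes cyclooxygenase-2, averaged 44 CPM in KO HI, 149 CPM in WT HI, 6.51 CPM in KO sham and 22.8 CPM in WT sham.

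Nearest to Ifitm2 were B3gnt3 (r = 0.983), Vwf (0.977), Lrrc8a (0.969), Atp8b1 (0.965) and Tmem159 (0.963), and nearest to Ifitm3 were B3gnt3 (0.978), Vwf (0.977), Tgm2 (0.971), Grrp1 (0.963) and Lrrc8a (0.962). B3gnt3, Vwf and Lrrc8a stood in both lists, and none of the 4 genes named for Ifitm1 stood in either. Vwf, the von Willebrand factor made by endothelial cells, is 1 of the 12 endothelial markers used above. It averaged 1221 CPM in KO HI, 2936 CPM in WT HI, 1207 CPM in KO sham and 1630 CPM in WT sham. The endothelial list as a whole did not share this rise in WT. The mean of its 12 markers on the log2 CPM scale was 9.32 ± 0.16 in WT HI and 9.37 ± 0.14 in WT sham (SD). In KO it was 8.24 ± 0.51 in KO HI and 8.68 ± 0.69 in KO sham.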

How the data were processed

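The authors deposited 1 table of expected counts per gene for 15 libraries. That unit is inferred, since RSEM is listed and between 3.12% and 3.92% of values in a library are fractional. HISAT2 2.1.0, Bowtie2 2.4.4, Bowtie, RSEM 1.3.1, DESeq2 1.4.5 and build mm39 are named, without roles, per the submitters' processing notes. A line count of 65535, with 47643 blank, means that the table may be shortened. RefSeq symbols were found for 17862 genes.

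Counts were rounded, and the 14853 genes kept by filterByExpr were fitted in edgeR 4.0.16 (R 4.3.3) with TMM scaling, 4 group means and the quasi-likelihood test. Benjamini-Hochberg adjustment ran over all 14853 genes, with calls at 0.05, and the biological coefficient of variation was 38.6%. The script was tested on simulated data. DESeq2 1.42.0, limma 3.58.1 (voom), other scalings, no filter, fits of 2 groups, a replicate block, marker covariates and leaving out libraries were alternatives. Shares were compared by exact permutation. The members and gene lists were chosen with earlier results of these data known. The text names the members, the other Ifitm genes, up to 4 genes of each list with the smallest p for HI against sham in KO, the called genes of each list, the nearest neighbours and the 5 genes most like each member, of which 1 is not reported here.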

Additional observations from a re-analysis of the deposited data

Results flagged for a closer look

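Ifitm2 in WT HI 2 stood apart from its group, at 167 CPM where the other WT HI libraries had 215, 218 and 223 CPM. The gap to the nearest library passed Dixon's 95% limit. Of 12 sets of 4 libraries examined (the CPM of the 3 members and the Ifitm1 share, each in KO HI, WT HI and KO sham), this was 1 flag, and chance flags about 1 in 20 groups. WT HI 2 was also the lowest injured WT library for Ifitm1, at 108 CPM, and for Ifitm3, at 290 CPM, without passing the limit. It differed in make-up as well. Its microglial markers summed to 4605 CPM, against 1867, 1865 and 1724 CPM in WT HI 1, 4 and 5. Its pericyte markers summed to 6531 CPM, against 9142, 8989 and 8670 CPM in those libraries. Whether this make-up bears on the flag was not tested.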

How the results depend on the processing

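There were 421 alternative values of the members' fold changes and Ifitm1 shares. Of these, 377 kept direction and, where a test was given, side of the threshold. A further 27 lost the call, 4 gained one, 12 changed sign and 1 moved by more than the spread. The 421 include values for HI against sham in WT, which had no test and so could neither lose nor gain a call. DESeq2, limma-voom, the other scalings and no filter on low counts changed no direction of a member. They changed no call in the comparisons where the members were tested, which leave out HI against sham in WT. Whether equal replicate numbers pair the libraries is not given by the labels. Same-number correlations of deviations from the group means were -0.78, 0.28 and 0.78 within KO, and 0.27 and 0.20 within WT. With so few libraries per group these values cannot settle it. With the replicate block, Ifitm1 was 1.69 for HI in KO (edgeR adjusted p = 0.0771), and KO against WT after HI gave -1.56, -0.80 and -0.87 for Ifitm1, Ifitm2 and Ifitm3 (0.0723, 0.0968 and 0.116). The fit of 2 groups gave Ifitm1 1.36 for HI in KO. Endothelial and microglial covariates gave -0.42, 0.06 and 0.15 for KO against WT after HI, 0.56 and 0.61 for Ifitm2 and Ifitm3 for HI in KO, and 0.24 and 0.33 in sham. The pericyte covariate gave -0.61, -0.27 and -0.28 after HI, 0.44 and 0.46 for Ifitm2 and Ifitm3 for HI in KO, and 0.04, 0.16 and 0.21 for the 3 members in sham. Neuronal and choroid plexus covariates gave Ifitm1 2.11 for HI in WT. Without the libraries of high neuronal marker level, Ifitm2 and Ifitm3 were 0.03 and 0.08 in sham, and Ifitm3 was -0.01 for HI in KO. The pericyte covariate and this last setting were chosen after seeing the data. The cause of these changes was not tested.

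Leaving out 1 library gave, for HI in KO, 1.15 to 1.59 for Ifitm1, -0.02 to 0.36 for Ifitm2 and -0.07 to 0.36 for Ifitm3, both negative values without KO sham 1; after HI, KO against WT gave -1.75 to -1.34, -0.93 to -0.77 and -1.04 to -0.84. The Ifitm1 share differed by 6.59 to 9.39 points for HI in KO and by -7.51 to -4.7 points after HI, with an exact permutation p of 0.0286 without a KO HI library and 0.0571 without a KO sham or WT HI library. Counts over all genes moved more. HI in KO called 1041 genes, against 16 in the 2-group fit, 73 with the block, 1932 by DESeq2 and 4580 with the pericyte covariate. HI in WT called 271, against 16 with the block and 2443 at most. KO against WT after HI called 1844, against 21 with the block, 1 with endothelial and microglial covariates, 3399 by DESeq2 and 3990 without the libraries of high neuronal marker level. Leaving out 1 library gave 355 to 1927, 48 to 554 and 481 to 3605 calls in these comparisons. In sham 2 genes were called, against 0 to 32, and for the difference of responses 0, against 0 to 245. Depth did not limit the members, which had at least 118 counts in every library.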
